A study of Homo sapiens with 6 samples.

Results

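A set of 10 genes of the bone morphogenetic protein (BMP) pathway were followed: the ID genes ID1, ID2, ID3 and ID4, the inhibitory SMADs SMAD6 and SMAD7, the receptors BMPR1A and BMPR2, the ligand BMP4 and the secreted antagonist GREM1. They were chosen by symbol, and all were found among the 25268 symbols of the expression table. Levels are in FPKM, which corrects fragment numbers for transcript length and for the size of the library. FPKM does not correct for base composition, so levels of different genes compare only roughly. The cells were A673, derived from an Ewing sarcoma with the EWSR1-FLI1 fusion, collected 72 h after transfection with esiRNA, a pool of short interfering RNAs cut enzymatically from a long double-stranded RNA. Each of 3 groups had 2 libraries: esiGFP, the non-targeting control; esiFLI1, which targets FLI1 and with it the EWS-FLI1 fusion; and esiUSP9X, which targets the deubiquitinase USP9X. All groups share the line, the transfection and the time point, so every value comes from 1 tumour line.

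BMP ligands bring together type I receptors such as BMPR1A and type II receptors such as BMPR2. The receptors phosphorylate SMAD1, SMAD5 and SMAD9, which enter the nucleus with SMAD4 and switch on targets that include the ID genes, SMAD6 and SMAD7. ID proteins have a helix-loop-helix domain but no DNA-binding region, so they hold basic helix-loop-helix (bHLH) factors away from DNA, while SMAD6 and SMAD7 feed back to dampen the receptors. Background knowledge also links both knockdowns to these genes: EWS-FLI1 binds GGAA repeats and ETS sites, and USP9X can remove ubiquitin from SMAD4.

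The promoters of the 4 genes that moved with esiFLI1 in the fit with a replicate block are shown because the fusion reads GGAA and the pathway's SMADs read GC-rich sites or GTCTAGAC. Each sequence is the 250 bases before the gene's start, 5′ to 3′ on the gene's strand, from RefSeq on GRCh38.p14. Capitals mark the ETS core GGAA and its reverse complement TTCC, the GC-rich motif GGCGCC, and the SMAD palindrome GTCTAGAC, all searched on both strands.
BMPR2, chr2:202376077-202376326, plus strand: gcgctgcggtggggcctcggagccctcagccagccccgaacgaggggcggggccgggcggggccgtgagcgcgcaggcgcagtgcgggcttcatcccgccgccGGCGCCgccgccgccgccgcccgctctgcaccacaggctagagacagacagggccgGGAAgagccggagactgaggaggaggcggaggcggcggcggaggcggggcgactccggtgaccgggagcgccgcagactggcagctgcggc
ID2, chr2:8681806-8682055, plus strand: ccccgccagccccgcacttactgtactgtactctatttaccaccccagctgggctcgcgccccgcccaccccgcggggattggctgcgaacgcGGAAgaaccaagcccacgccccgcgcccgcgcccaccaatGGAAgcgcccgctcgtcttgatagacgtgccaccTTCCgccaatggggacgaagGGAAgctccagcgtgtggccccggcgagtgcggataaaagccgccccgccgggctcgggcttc
ID3, chr1:23559502-23559751, minus strand: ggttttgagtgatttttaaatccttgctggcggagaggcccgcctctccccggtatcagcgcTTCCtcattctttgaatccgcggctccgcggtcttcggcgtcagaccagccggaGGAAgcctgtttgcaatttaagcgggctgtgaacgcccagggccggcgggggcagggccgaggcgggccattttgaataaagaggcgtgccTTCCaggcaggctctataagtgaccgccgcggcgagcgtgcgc
SMAD6, chr15:66701986-66702235, plus strand: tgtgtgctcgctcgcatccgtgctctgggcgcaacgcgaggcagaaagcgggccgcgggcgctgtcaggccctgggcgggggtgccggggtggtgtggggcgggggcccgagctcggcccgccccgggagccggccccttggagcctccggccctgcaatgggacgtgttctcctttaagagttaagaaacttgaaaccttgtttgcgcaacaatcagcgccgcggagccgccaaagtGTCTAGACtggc
The GGAA core or its reverse TTCC stood once before BMPR2, 4 times before ID2, 3 times before ID3 and 0 times before SMAD6. Of 35116 RefSeq promoters of the same length, 92.7% held it, with a median of 3. Among members not called in that fit, BMPR1A had 6 matches, the SMAD7 windows 3 to 5, and ID1 and ID4 1 each. Adjacent copies, GGAAGGAA or its reverse complement TTCCTTCC, were in none of the 4 windows shown, in 1 window of BMP4 and in 3.06% of all promoters. The palindrome GTCTAGAC was in the SMAD6 window and in 0.182% of all promoters, and GGCGCC was in the BMPR2 window and in 16.4% of all. GGCGCC also stood in a window of BMP4 and in a window of GREM1, which were too low for testing. The E-box CANNTG, the bHLH recognition sequence, stood once each before BMPR2 and ID2 and was in 61.8% of all promoters. These are matches of letters, and no binding was measured.

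The libraries differed in ways that touch these genes. FPKM summed to between 781732 and 907926 per library, and MIR6723 alone held 33.2% to 50.9% of that sum. Library depth is unknown, since only FPKM was used. In bulk RNA, fewer cells of a type and less RNA per cell cannot be told apart. Both esiRNAs lowered their targets. FLI1 was 24.1 and 36.4 FPKM in esiGFP, against 12.7 and 14.1 in esiFLI1, a log2 difference of -1.09 (limma adjusted p = 0.13, or 4.4e-04 with the replicate number as a block). USP9X was 20.6 and 26.5 FPKM in esiGFP, against 5.31 and 7.10 in esiUSP9X, a log2 difference of -1.77 (limma adjusted p = 1, or 4.5e-04 in the blocked fit).

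Among the 10 genes, ID2 was the most abundant, with a mean of 154.4 FPKM over the 6 libraries, followed by ID3 at 66.4 and BMPR1A at 50.1. ID4 averaged 23.3 FPKM, SMAD6 18.4, BMPR2 14.3, ID1 10.2 and SMAD7 5.92. In the esiGFP libraries the neighbours ID3 and BMPR1A overlapped, as did ID4 and SMAD6, and BMPR2 and ID1, so their order is not settled by these data. The ligand BMP4 was listed at 0 in 4 of the 6 libraries and at 0.00772 and 0.0121 FPKM in the others, and the antagonist GREM1 ranged from 0 to 0.0356 FPKM. These cells therefore carried RNA for BMPR1A, BMPR2 and both inhibitory SMADs, and BMP4 and GREM1 were not above 0.04 FPKM in any library. Neither reached the minimum for testing, 1 FPKM in at least 2 libraries, and the other 8 did.

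**Figure D1:**
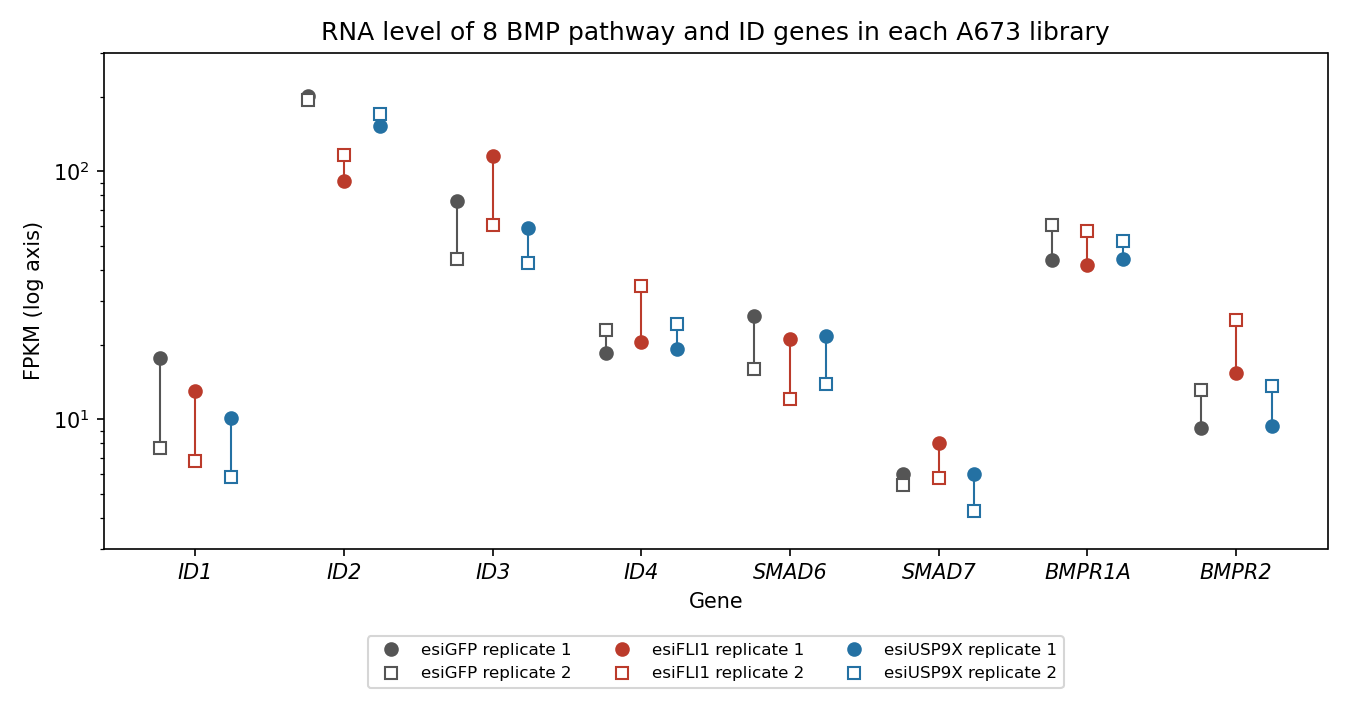
FPKM (log axis) of the 8 tested genes in each library, grey for esiGFP, red for esiFLI1 and blue for esiUSP9X. Filled circles are replicate 1, open squares replicate 2, and a line joins the libraries of a group. ID2 is lower and BMPR2 higher in both esiFLI1 libraries than in both controls, while ID1, ID3 and SMAD6 are highest in replicate 1 of every group.

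The first comparison asked how these genes responded when the fusion was lowered. BMPR2, the type II receptor, was higher in both esiFLI1 libraries than in both controls, and ID2 was lower. The libraries of the groups did not overlap for these 2 of 8 members, nor for 37.1% of all genes. Members were tested with limma on log2(FPKM + 1), in which a fold change understates the change of low genes, and with adjusted p under 0.05 over 12169 genes as the call. Without a block, 0 of the 8 members were called where 2.81% of all genes were. At an unadjusted p under 0.05 there was 1 member, ID2, and 15.8% of all genes. With the replicate number as a block, 4 of 8 were called, with BMPR2 and ID3 higher and ID2 and SMAD6 lower, where 42.1% of all genes were (20.6% higher and 21.6% lower). The members' share was thus near the background. Their median log2 difference was 0.08, with 4 of 8 above 0, and that of all genes tested was -0.03. With MIR6723 left out of the FPKM sum, the median over all genes in this comparison became 0.10.

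BMPR2 measured 9.24 and 13.2 FPKM in esiGFP (11.2 ± 2.77, SD, n = 2) and 15.4 and 25.1 in esiFLI1 (20.3 ± 6.84, SD, n = 2). Both esiFLI1 libraries exceeded both controls. The log2 difference was 0.78, being 0.68 between the first replicates and 0.88 between the second. It did not pass without a block (SE 0.34, limma adjusted p = 0.37), and BMPR2 rose in the blocked fit (SE 0.10, limma adjusted p = 9.4e-04). That call held in all 13 blocked settings tried, with differences from 0.68 to 0.93.

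BMPR1A, the type I partner, did not show this. It measured 43.7 and 60.9 FPKM in esiGFP (52.3 ± 12.1, SD, n = 2) and 42.0 and 57.3 in esiFLI1 (49.6 ± 10.8, SD, n = 2), and the groups overlapped. Its log2 difference was -0.07, with a blocked 95% interval from -0.31 to 0.17 (limma adjusted p = 0.94, or 0.59 in the blocked fit), and its sign turned to 0.08 when MIR6723 was left out of the sum and to 0.06 under quantile normalization.

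The inhibitory SMADs gave smaller differences of opposite sign. SMAD6 measured 26.2 and 15.9 FPKM in esiGFP, against 21.1 and 12.0 in esiFLI1. The groups overlapped, yet the esiFLI1 library was the lower within each replicate number, by -0.30 and -0.38 on the log2 scale. SMAD6 fell in the blocked fit by 0.34 (SE 0.10, limma adjusted p = 0.027), and did not pass without it (limma adjusted p = 0.80). The blocked call was lost without any 1 of the esiGFP or esiFLI1 libraries (esiGFP 1, adjusted p = 0.14; esiGFP 2, 0.15; esiFLI1 1, 0.052; esiFLI1 2, 0.13) and with MIR6723 left out of the sum (-0.19, adjusted p = 0.15). SMAD7 measured 5.99 and 5.42 FPKM in esiGFP, against 8.01 and 5.81 in esiFLI1, a log2 difference of 0.23 that was not called (limma adjusted p = 0.78, or 0.16 in the blocked fit). With MIR6723 left out of the sum, SMAD7 passed in the blocked fit (0.36, limma adjusted p = 0.040).

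The 4 ID genes did not move as a block. ID2 measured 201 and 195 FPKM in esiGFP (198 ± 4.40, SD, n = 2) and 91.7 and 116 in esiFLI1 (104 ± 17.5, SD, n = 2), with no overlap. Its log2 difference was -0.93, and both replicate numbers gave a lower value, -1.12 and -0.74. It did not pass without a block (SE 0.19, limma adjusted p = 0.086), and ID2 fell in the blocked fit (SE 0.11, limma adjusted p = 7.1e-04). The blocked call held in all 13 settings, with differences from -1.08 to -0.76.

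ID3 went the other way. It measured 75.8 and 44.3 FPKM in esiGFP (60.1 ± 22.3, SD, n = 2) and 115 and 60.9 in esiFLI1 (88.2 ± 38.5, SD, n = 2). The first replicate was the higher in both groups and the groups overlapped. The log2 difference was 0.53, with 0.60 and 0.45 in the replicate numbers (no block, SE 0.42, limma adjusted p = 0.67), and ID3 rose in the blocked fit (SE 0.12, limma adjusted p = 0.011). That call was lost without the first esiFLI1 library (0.38, adjusted p = 0.096) and with no filter on low values (adjusted p = 0.055).

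ID1 and ID4 were not called. ID1, often used as a readout of BMP signalling, measured 17.7 and 7.68 FPKM in esiGFP (12.7 ± 7.09, SD, n = 2) and 13.0 and 6.81 in esiFLI1 (9.90 ± 4.36, SD, n = 2). The replicates of the control alone differed by more than the groups did, and the log2 difference was -0.29 (limma adjusted p = 0.88, or 0.096 in the blocked fit). ID4 measured 18.5 and 22.8 FPKM in esiGFP, against 20.4 and 34.5 in esiFLI1, with a log2 difference of 0.36 (limma adjusted p = 0.70, or 0.056 in the blocked fit). Without the second esiGFP library, ID1 passed in the blocked fit (-0.46, limma adjusted p = 0.048). ID4 passed in 4 of the 13 blocked settings.

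**Figure D2:**
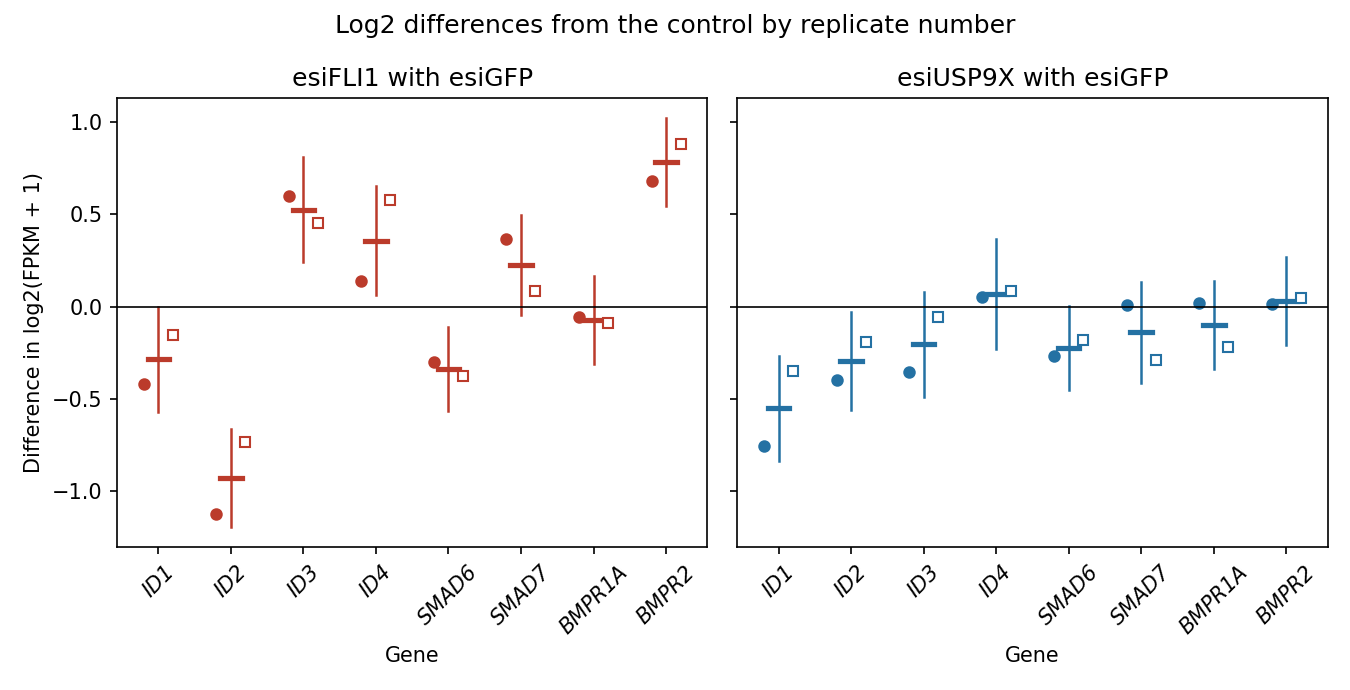
Difference from esiGFP in log2(FPKM + 1) for the 8 tested genes, esiFLI1 on the left and esiUSP9X on the right. Filled circles are the difference between first replicates, open squares between second replicates, bars the mean and vertical lines the 95% interval of the blocked fit. BMPR2 at 0.78 and ID2 at -0.93 lie farthest from 0 under esiFLI1, and ID1 at -0.55 lies farthest under esiUSP9X.

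The second comparison asked what lowering USP9X did. No member was called with or without the block (0 of 8 in both limma fits, against 0.0247% and 0.238% of all genes). At an unadjusted p under 0.05 there were 0 members without the block, against 0.937% of all genes, and 2 with it, ID1 and ID2, against 10.9%. The members' median log2 difference was -0.17, with 2 of 8 above 0, and that of all genes was -0.01.

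ID1 measured 10.1 and 5.83 FPKM in esiUSP9X (7.95 ± 3.01, SD, n = 2), below the esiGFP library of the same number each time. The groups overlapped. The log2 difference was -0.55 (blocked 95% interval -0.84 to -0.27, limma adjusted p = 0.20 with the block and 1 without it). Without the second esiGFP library the blocked difference was -0.72 and ID1 passed. That fit had 1 residual degree of freedom and 1 control library, and why ID1 passed there was not tested. ID2 measured 152 and 170 FPKM in esiUSP9X (161 ± 12.8, SD, n = 2), below both controls. Its log2 difference of -0.29 was not called (limma adjusted p = 0.42 in the blocked fit). Groups that did not overlap were seen for 16.6% of all genes in this comparison.

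The other members were not called either, and their libraries overlapped those of the control. SMAD6 was 21.6 and 13.9 FPKM in esiUSP9X, the lower within both replicate numbers, with a log2 difference of -0.23 (blocked 95% interval -0.45 to 0.0023, limma adjusted p = 0.47). ID3 was 59.2 and 42.6 FPKM, a difference of -0.20 on the log2 scale (limma adjusted p = 0.62 in the blocked fit). SMAD7 was 6.03 and 4.26 FPKM, the second below both controls, with a log2 difference of -0.14 (blocked limma adjusted p = 0.73). The values of ID4 were 19.2 and 24.3 FPKM (0.07 on the log2 scale) and those of BMPR1A 44.4 and 52.2 (-0.10). BMPR2 was 9.36 and 13.6 FPKM in esiUSP9X, a log2 difference of 0.03 with a blocked 95% interval from -0.21 to 0.27 (limma adjusted p = 0.95). That interval lies below the 0.78 measured with esiFLI1, but the 95% interval without a block, from -0.83 to 0.89, includes it.

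Setting the knockdowns directly against each other tested where they differed. Without a block 0 of 8 members were called against 3.08% of all genes, and ID2 alone had an unadjusted p under 0.05, against 15.9% of all genes. In the blocked fit 4 were called, 1 higher and 3 lower, against 41.1% of all genes (20.2% higher and 20.9% lower). Groups did not overlap for 3 of 8 members and for 39.5% of all genes. ID2 was higher in esiUSP9X than in esiFLI1 by 0.63 (limma adjusted p = 0.0038), and BMPR2 was lower by a log2 difference of -0.75 (adjusted p = 0.0011). ID3 was lower too, at -0.73 (limma adjusted p = 0.0027). These 3 calls held in all 13 blocked settings. SMAD7 passed at -0.37 (limma adjusted p = 0.039), a call made in 7 of the 13. Among the settings that ended it were leaving out esiFLI1 1 (0.19), esiFLI1 2 (0.10), esiUSP9X 1 (0.094) or esiUSP9X 2 (adjusted p = 0.23).

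Several members differed as much between replicate numbers as between groups. ID1 was lower in the second replicate of every group, by -1.11 in esiGFP, -0.84 in esiFLI1 and -0.70 in esiUSP9X on the log2 scale. SMAD6 gave -0.69, -0.76 and -0.60 in the same order, and ID3 -0.76, -0.91 and -0.47. BMPR2 went the other way, at 0.47, 0.67 and 0.50. These differences went with the base composition of the transcripts: ID1, ID3, SMAD6 and SMAD7 have 57.2% to 58.9% GC and were lower in the second replicate, whereas BMPR2 (37.6%), BMPR1A (40.6%) and ID4 (47%) were higher. ID2 did not follow this order: at 53.3% GC, a content above that of 67% of the kept genes, it differed by -0.05, 0.34 and 0.16 in esiGFP, esiFLI1 and esiUSP9X. Across 11470 genes in the mean over the 3 groups, Spearman's rho between GC and the replicate difference was -0.854, a description over genes that are not independent. With a GC correction and no block, BMPR2 (0.68, limma adjusted p = 0.0097) and ID3 (0.54, limma adjusted p = 0.040) were called higher in esiFLI1, while ID2 (-0.94, adjusted p = 0.083) and SMAD6 (-0.30, adjusted p = 0.064) were not.

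**Figure D3:**
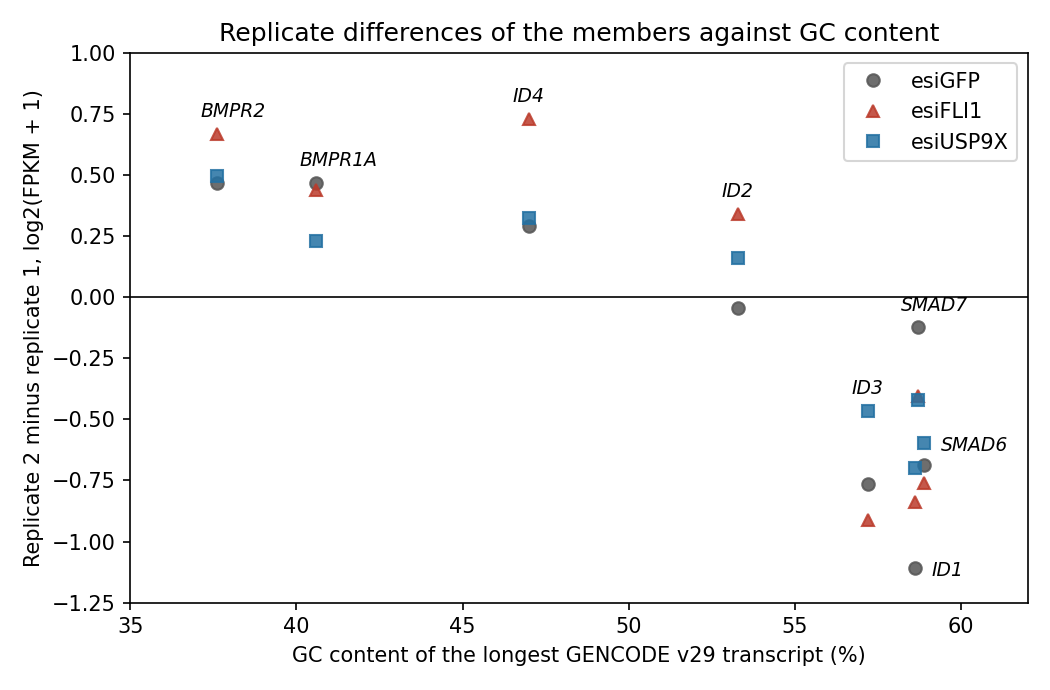
Difference between replicate 2 and replicate 1 in log2(FPKM + 1) of the 8 tested genes (y axis) against the GC content of the longest GENCODE v29 transcript in percent (x axis), with a point per group. BMPR2, at 37.6% GC, lies above 0 in all 3 groups, and ID1, at 58.6%, lies below 0 in all 3.

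The genes whose levels followed ID1 most closely over the 6 libraries were ADORA2B, ACTG1, NUP210, ANKRD27 and NT5M, with Pearson's r from 0.989 to 0.992 across log2 values. Among the members, SMAD6 had an r of 0.93 with ID1, ID3 0.74 and SMAD7 0.66. ID4 had -0.71, BMPR2 -0.54 and BMPR1A -0.77, and ID2 showed no relation (-0.0006). These 6 points share the replicate difference described above, so the values describe the libraries only.

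The rest of the pathway was read by role, from lists chosen with results of these data known. In the esiFLI1 fit without a block, 0 were called among ligands, receptors and co-receptors, intracellular regulators of SMADs and bHLH partners. Of all genes, 2.81% were called in that fit. Among BMP ligands, 3 of 13 passed the filter on low values. BMP5 was 0.375 and 0.352 FPKM in esiGFP, against 1.11 and 1.75 in esiFLI1, a log2 difference of 0.82. BMP5 was under 1 FPKM in the other 4 libraries and passed the filter only through esiFLI1, where it is higher. Its blocked call depends on that choice of genes, so its p-value there is not given and the call is no support. The call was also lost without the second esiFLI1 library. With no filter the blocked limma adjusted p was 0.021. GDF6, the most abundant of the 3, was 94.9 and 64.4 FPKM in esiGFP, against 72.5 and 46.5 in esiFLI1, and fell in the blocked fit (-0.42, limma adjusted p = 0.013). That call was lost without esiGFP 1 (adjusted p = 0.057) or esiFLI1 2 (0.096), with quantile normalization (adjusted p = 0.057) and with MIR6723 left out (0.059). Among receptors and co-receptors, 8 of 11 passed the filter, and the blocked fit called 2 higher and 0 lower, against 20.6% and 21.6% of all genes. They were the co-receptor RGMA (0.56, limma adjusted p = 0.012) and the type I receptor ACVR1 (0.40, limma adjusted p = 0.029). Both calls were lost without the first esiFLI1 library (adjusted p = 0.10 for RGMA and 0.17 for ACVR1) and with no filter on low values (adjusted p = 0.051 for RGMA and 0.093 for ACVR1), and RGMA's also under quantile normalization (adjusted p = 0.080). ACVR1 was also not called without esiGFP 1 (0.33) or esiFLI1 2 (adjusted p = 0.078).

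Extracellular antagonists and modulators held the largest differences of the BMP lists with esiFLI1. Of 18, 8 passed the filter, and their median log2 difference was 0.74 against -0.03 for all genes. Without a block 1 was called higher and 1 lower, where 2.81% of all genes were called, and in the blocked fit 5 higher and 1 lower, where 20.6% and 21.6% of all genes were. CRIM1, a membrane protein that binds BMPs, rose from 16.0 and 13.6 FPKM to 42.9 and 43.8 (1.50, SE 0.18, limma adjusted p = 0.024). CER1, a secreted BMP and Nodal antagonist, fell from 13.6 and 13.8 FPKM to 5.63 and 5.32 (-1.18, SE 0.18, limma adjusted p = 0.044). Leaving out any 1 of the 6 libraries ended the calls of CRIM1 (adjusted p 0.105 to 0.21) and CER1 (adjusted p 0.17 to 0.29) in the fit without a block. So did a fit of these 2 groups alone (adjusted p = 0.12 for CRIM1 and 0.18 for CER1) and, for CER1, quantile normalization (0.051), leaving out MIR6723 (0.052) and a filter of 5 FPKM (adjusted p = 0.058). Both calls held in all 13 blocked settings. BMP1 is a protease that cleaves the antagonist chordin and is not a BMP ligand despite its name. It was 8.53 and 4.62 FPKM in esiGFP, against 37.7 and 20.2 in esiFLI1, and rose in the blocked fit (1.97, limma adjusted p = 5.1e-05). NBL1, a secreted antagonist, rose in the blocked fit too, from 7.43 and 4.41 FPKM to 31.6 and 13.6 (1.69, limma adjusted p = 2.4e-04). Without a block neither passed (limma adjusted p = 0.091 for BMP1 and 0.16 for NBL1).

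All 4 SMADs that carry the signal passed the filter, and 0 were called without the block. In the blocked esiFLI1 fit 2 were called higher and 0 lower, a share near the 42.1% of all genes. SMAD9 rose from 6.66 and 6.43 FPKM to 9.99 and 10.5 (0.57, limma adjusted p = 0.0034). SMAD5 rose from 18.4 and 26.8 FPKM to 22.4 and 40.6 (0.42, limma adjusted p = 0.023), a call lost without esiGFP 2 (0.12) or esiFLI1 2 (adjusted p = 0.15) and with no filter (0.074). SMAD4, the partner that USP9X can deubiquitinate, was 13.0 and 15.3 FPKM in esiGFP, against 12.1 and 13.9 in esiUSP9X. Its log2 difference was -0.11 with a blocked 95% interval from -0.34 to 0.11 (limma adjusted p = 0.74), and RNA levels give no measure of SMAD4 protein. Among 15 intracellular regulators of SMADs, all passed the filter and 3 were called higher and 0 lower in the blocked esiFLI1 fit, no more than the 20.6% and 21.6% of all genes. They were ZNF423, a zinc finger cofactor of BMP SMADs (0.78, limma adjusted p = 0.0010), the ubiquitin ligase SMURF2 (0.49, adjusted p = 0.0052) and the phosphatase CTDSP2 (0.32, adjusted p = 0.039). The CTDSP2 call was lost in 6 of the 13 blocked settings, including without any 1 library other than the second of esiFLI1 (adjusted p 0.064 to 0.27).

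Other genes that BMP can induce were mixed in direction. Of 17, 9 passed the filter, and in the blocked esiFLI1 fit 4 were called higher and 2 lower, against 20.6% and 21.6% of all genes. Without a block 1 was called higher and 0 lower, where 2.81% of all genes were called. HEY1, a repressor of the Hairy family, was called without a block as well, from 0.634 and 0.798 FPKM to 2.44 and 2.26 (0.97 on the log2 scale). That unblocked call was lost without any 1 of the 6 libraries, with a pseudocount of 0.1 and with quantile normalization. Median scaling, no trend in eBayes and a fit of these 2 groups alone also ended it, while the blocked call held in all 13 settings. HEY1 and ATOH8 were under 1 FPKM in every esiGFP and esiUSP9X library and entered the test only through esiFLI1, where they are higher. Their p-values in the filtered fits are therefore not given. Their calls, and the counts above that include them, are no support. With no filter the blocked adjusted p was 0.014 for HEY1 and 0.015 for ATOH8. HES1, also a Hairy-family repressor, fell from 58.7 and 54.4 FPKM to 30.3 and 34.8 (-0.78, limma adjusted p = 0.0012 in the blocked fit). The bone factor RUNX2 rose in that fit by 1.11 (limma adjusted p = 0.0013), and the log2 difference of ATOH8, a bHLH factor, was 0.67. Of 12 bHLH partners of ID proteins, 5 passed the filter, and 2 were called higher and 1 lower in the blocked fit, against the same 20.6% and 21.6%. TWIST1 rose in the blocked fit by 0.83 (limma adjusted p = 5.0e-04) and TCF4 by 0.63 (adjusted p = 0.0022), and TCF3, the gene of the E proteins E12 and E47, fell by 0.46 (adjusted p = 0.021). The TCF3 call was made in 7 of the 13 blocked settings, and was lost without esiGFP 1 (0.13), esiFLI1 1 (0.071) or esiFLI1 2 (adjusted p = 0.16).

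For contrast, 11 of 12 genes of the TGF-beta and activin arm passed the filter. Without a block 3 were called higher and 0 lower, where 2.81% of all genes were called. They were the ligand TGFB2 (4.27, limma adjusted p = 0.0058) and the receptors TGFBR2 (1.84, 0.013) and TGFBR3 (1.37, 0.026). How far the calls of TGFBR2 and TGFBR3 depend on single libraries is not given here. The blocked fit called 5 higher and 2 lower, against 20.6% and 21.6% of all genes. SMAD3 was among the higher there (0.90, limma adjusted p = 4.4e-04). The TGFB2 call was lost without esiGFP 1 (adjusted p = 0.086) or esiGFP 2 (0.094), and held in all 13 blocked settings. With esiUSP9X, 0 genes of any of these lists were called in either limma fit, and list medians lay between -0.12 and 0.19. Across the BMP lists there, single differences ran from -0.49 (ZNF423) to 0.43 (BAMBI, a decoy receptor).

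**Figure D4:**
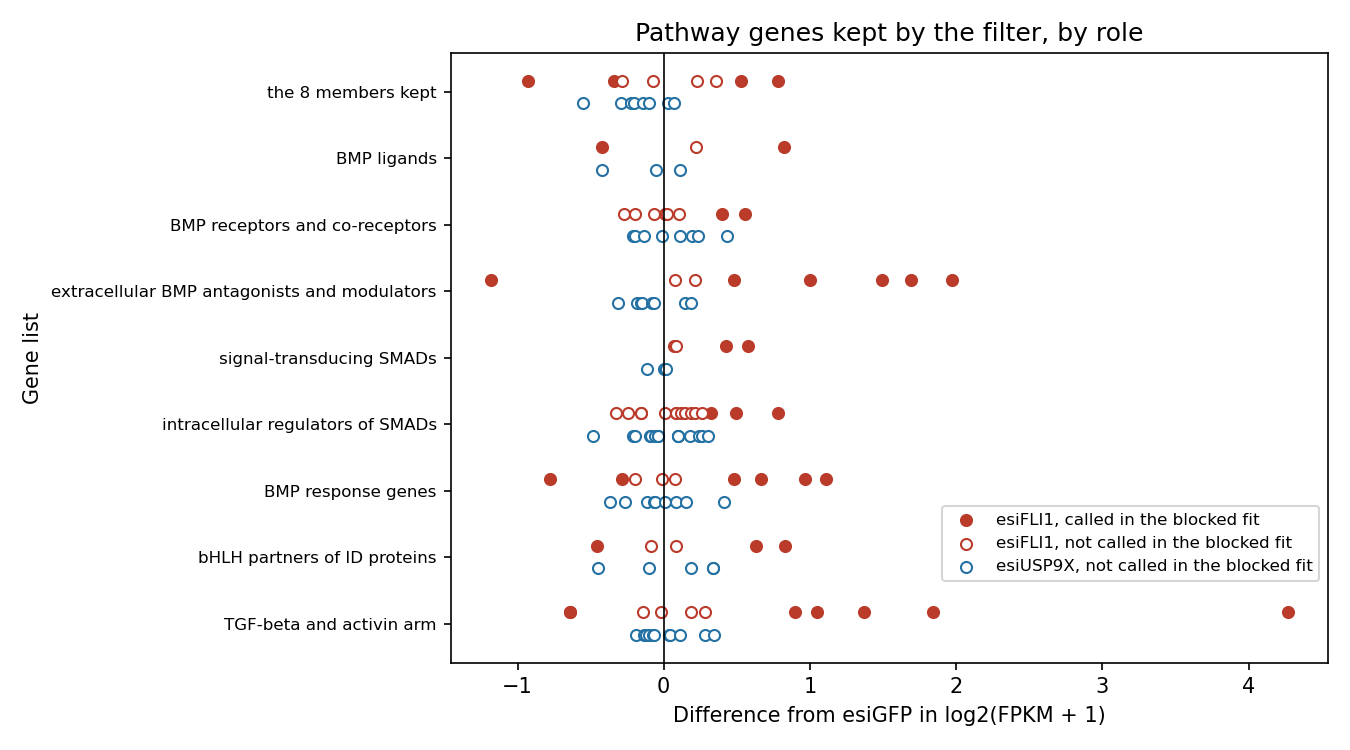
Difference from esiGFP in log2(FPKM + 1) for each gene that passed the filter (x axis), by list (y axis), red for esiFLI1 and blue for esiUSP9X. Filled points were called in the blocked fit. Antagonists and modulators spread from -1.18 to 1.97 under esiFLI1, and no blue point is filled.

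Summed levels of cell markers differed between the groups. The summed FPKM of 9 Ewing sarcoma markers was 769 to 783 in esiGFP, 358 to 392 in esiFLI1 and 714 to 775 in esiUSP9X. CCND1 made up most of it, at 472 and 459 FPKM in esiGFP, 220 and 204 in esiFLI1 and 413 and 394 in esiUSP9X. The list also holds FLI1, the target of esiFLI1, and its partner gene EWSR1. CD99 was listed at 0 in all 6 libraries, and EEF1A1, which every cell uses, was listed at 0 in both esiGFP libraries, so a listed 0 can be a failed estimate. The sum over 8 endothelial markers was 19.6 to 22.8 in esiGFP, 30.8 to 51.9 in esiFLI1 and 16.8 to 24.7 in esiUSP9X, mostly EMCN, with 5 of 8 under 1 FPKM in every library and 0 of 8 at 0 throughout. The 2 endothelial markers that passed the filter were EMCN and KDR. KDR passed only through esiFLI1, at 1.30 and 1.33 FPKM against 0.106 and 0.0885 in esiGFP. It entered the test only through the group where it is high, so no p-value is given for it. Over 8 epithelial markers the sum was 148 to 200 in esiGFP, 142 to 246 in esiFLI1 and 162 to 230 in esiUSP9X, with 3 listed at 0 throughout. KRT18 made up most of it. KRT8 was 7.63 and 4.12 FPKM in esiGFP, 21.3 and 12.0 in esiFLI1 and 14.5 and 8.39 in esiUSP9X, and rose in the blocked limma fit with both esiFLI1 (1.36, adjusted p = 6.0e-05) and esiUSP9X (0.86, adjusted p = 0.021), though not without the block (0.22 and 1). The blocked fit called 42.1% of all genes with esiFLI1 and 0.238% with esiUSP9X. KRT18, the other epithelial marker that passed the filter, was not called, at 0.03 with esiFLI1 and 0.13 with esiUSP9X (blocked limma adjusted p = 0.86 and 0.74). These markers were named after their values were seen. Over 6 blood cell markers the sum was at most 0.407 in any library, with 2 at 0. Their part in the differences of ID2, BMPR2 and the other members was not tested.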

How the data were processed

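RNA of 6 A673 libraries (2 each for esiGFP, esiFLI1 and esiUSP9X) was sequenced from 2 µg of total RNA after ribosomal RNA depletion, as stranded 75-nt single-end reads, per the labels' protocols. The authors deposited FPKM per gene symbol. TopHat, Cufflinks, Cuffdiff, hg19 and GRCh37 are named in the submitters' processing notes, without versions or roles, and the sources used here do not give the annotation or the use of strand. The members, lists and tests were chosen with earlier results of these data known.

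From the deposited FPKM, 1 stray line was dropped, 0 columns belonged to no sample, and 12169 of 25268 genes were kept for reaching 1 FPKM in 2 or more libraries. limma 3.58.1 (R 4.3.3, eBayes with a trend) was run on log2(FPKM + 1) over all 6 libraries. P-values are two-sided, adjusted by Benjamini-Hochberg over the kept genes, and a call needed an adjusted p under 0.05. SD is over 2 libraries, SE is from the model, and intervals are 95%. The labels do not say that replicates were separate cultures, so the p-values cover only the spread among these libraries, which may be technical.

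The replicate numbers were taken as pairs from the data, not the labels: deviations from the group means correlated across genes at 0.647 (esiGFP, esiFLI1), 0.589 (esiGFP, esiUSP9X) and 0.644 (esiFLI1, esiUSP9X). The blocked fit adds the number as a block. All comparisons share libraries, so esiFLI1 and esiUSP9X differences from esiGFP are not independent.

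All members are described. Of each list, up to 4 called genes with the smallest adjusted p are named, or the 2 of highest mean FPKM. List extremes, marker genes and motifs shown were chosen after values were seen. GC content came from the longest GENCODE v29 transcript by symbol (94.3% of kept genes), and promoters from RefSeq on GRCh38.p14, another build than the files, so no coordinates were joined. The procedure was run on data simulated from the blocked fit itself, with known differences added. Such data cannot tell whether the block is right for these libraries. Alternatives were other pseudocounts, filters and scalings, a GC correction, the block, 2-group fits and leaving out each library. Where a library was left out, the lone sample of its group was assumed to vary like the others. Blocked versions of 4 settings were added after the data were seen.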

Additional observations from a re-analysis of the deposited data

How the results depend on the processing

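Members called with the replicate block numbered 4 for esiFLI1 with esiGFP and 4 for esiUSP9X with esiFLI1, against 0 without it. In the first comparison the count was 2 with a GC correction, 4 with that and the block, 5 with quantile normalization and the block, 4 with median scaling and the block, 5 without MIR6723 in the sum and the block, 3 with no filter and the block, and 4 with a pseudocount of 0.1 and the block. In esiUSP9X with esiFLI1 the same settings gave 2, 4, 3, 4, 4, 3 and 4. The shares of all genes called there were 23.6%, 54.4%, 40.0%, 42.7%, 39.5%, 21.6% and 40.8%. The share of all genes called in the first comparison was 23.9%, 54.5%, 38.7%, 43.1%, 41.0%, 21.8% and 41.9% in that order of settings. Fits that left out a single library had 1 library in a group, so their counts of members called are not given. For esiUSP9X with esiGFP every setting other than those gave 0. The share of calls that were higher over all genes in esiFLI1 was 91.8% without the block, 48.8% with it, 53.1% with GC correction and 69.1% without MIR6723 and with the block.

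The sign of BMPR1A in esiFLI1 turned to 0.065 under quantile normalization and to 0.079 without MIR6723, with and without the block, and in esiUSP9X with esiFLI1 to 0.049 under GC correction. SMAD5 in esiUSP9X turned from 0.0093 to -0.0094 under GC correction, in both fits. Leaving out single libraries turned other signs, and the ends of the ranges below come from fits without the block. With the block, no sign turned in esiFLI1, and those of ID4, SMAD7, BMPR1A, BMPR2 and SMAD5 in esiUSP9X and of BMPR1A between the knockdowns did. In esiFLI1 the ranges were -0.84 to 0.27 for ID1, -0.0071 to 0.72 for ID4, -0.72 to 0.042 for SMAD6, -0.31 to 0.16 for BMPR1A and -0.096 to 0.74 for CTDSP2. In esiUSP9X they were -1.11 to 0.0023 for ID1, -0.59 to 0.18 for ID3, -0.093 to 0.23 for ID4, -0.57 to 0.12 for SMAD6, -0.35 to 0.070 for SMAD7, -0.33 to 0.14 for BMPR1A, -0.22 to 0.28 for BMPR2 and -0.25 to 0.27 for SMAD5. Between the knockdowns they were -0.68 to 0.15 for ID1, -0.65 to 0.076 for ID4, -0.27 to 0.49 for SMAD6 and -0.25 to 0.19 for BMPR1A. The cause was not tested. No depth was known, so low values carry no counting error.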
